A study of Mus musculus with 4 samples.

Results

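The clock output and accessory regulators described here are 8 genes that act beside the core loop of the circadian clock. Dbp, Tef and Hlf are the PAR bZIP activators, Nfil3 is their bZIP repressor, Bhlhe40 and Bhlhe41 are the Dec repressors, Rora is a ROR nuclear receptor and Csnk1e is a clock kinase. They were taken by gene name, with earlier results of these data known, and each matched 1 row of a table of 22863 genes. All 8 passed the filter on low values described below, as did 17784 genes in all. The data were RNA-seq of mouse eyes from 4 samples, 2 from subjective day and 2 from objective day. All mice were of the melatonin-proficient C3H/f+/+ strain, which the sample labels give as C3H and which lacks the Pde6b mutation of the original C3H strain. Subjective day eyes came from mice kept in darkness for 18 hours and taken at CT 6 (circadian time, the noon of the internal clock), although another passage of the study gives a longer time in darkness for this group. Objective day eyes came from mice that had seen morning light, were then dark-adapted for 1 hour and were taken at ZT 6 (zeitgeber time, noon of the light cycle). Each sample pooled 4 eyes from a female and a male, without lens and anterior eye, so that retina, RPE, choroid and posterior sclera were measured together. The mice were age-matched and their age in the RNA-seq is not given in the sources used here. The comparison asks how light history at the same hour of the day bears on these transcripts. Only 1 time of day was sampled, so rhythm, phase and amplitude were not measured.

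The circadian clock of mammals is a transcription loop in which CLOCK and BMAL1 activate the genes of their own repressors through E-box elements, and the retina carries such a clock of its own. DBP, TEF and HLF carry clock time to further genes by activating D-box elements, and NFIL3 (E4BP4) represses through the same element. DEC1 (Bhlhe40) and DEC2 (Bhlhe41) bind E-boxes and oppose CLOCK and BMAL1. RORA activates through ROR elements, at which the REV-ERB receptors Nr1d1 and Nr1d2 repress, and casein kinase 1 epsilon (Csnk1e) phosphorylates the PER proteins and so sets their turnover.

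The values were adjusted gene counts at one common library size, summing to between 33278417 and 35236783 per sample, and they do not give the sequencing depth. Comparisons were made with limma on log2(value + 1), and a gene is called when its adjusted p (Benjamini-Hochberg over all genes tested) is under 0.05. Fold changes are objective day over subjective day. A two-sided exact permutation test of 2 samples against 2 reaches p = 0.333 at best, and calls therefore depend on limma's pooling of variance over genes. Over all genes tested, 1325 were called lower and 189 higher in objective day, and with samples rescaled to equal sums 1205 were called lower and 617 higher. Fold changes followed the GC content of the transcript (Spearman correlation 0.58 over 17536 genes, which do not count as replicates), and values with each sample's GC trend removed are therefore given beside the deposited ones. The 4 rod markers of the retina summed to between 1886104 and 2374810 per sample, and none of the 4 was called. Of the RPE markers and of the Mueller glia markers 1 of 3 tested was called lower in each, and none of the bipolar, choroid and sclera, or skeletal muscle markers was called. Of 4 cornea markers 3 could be tested and all 3 were called lower in objective day, with a summed level of 5331 and 5523 in subjective day and of 1617 and 2793 in objective day. Blood markers lay on the other side (3 of 5 called higher, summed level 3054 and 3161 against 4301 and 4574), and none of 3 tested lens markers was called, their sum of 4306 to 39258 being the higher in both samples numbered 1. The part of unequal tissue in the results below was not tested. In such mixed tissue, fewer cells of a type and less RNA per cell cannot be told apart.

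Of the 8 genes, Rora was called lower in objective day and none was called higher, where 7.45% of all genes tested were called lower and 1.06% higher. The other 7 were not called, with adjusted p from 0.119 for Bhlhe41 to 0.795 for Csnk1e in limma's test. The log2 fold change was below 0 in 4 of the 8 and above 0 in 4, and its median was -0.00076, compared with 0.015 over all genes tested. The 2 conditions did not overlap for 6 genes, Tef, Hlf, Bhlhe41 and Rora being lower and Nfil3 and Bhlhe40 higher in objective day. Over all genes tested, 28.2% lay without overlap on the lower side and 27.9% on the higher side. With the GC trend removed none of the 8 was called, the log2 fold changes ran from -0.13 to 0.14, and the smallest adjusted p was 0.455. Across all genes that setting called 0.633% lower and 0.570% higher.

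**Figure D1:**
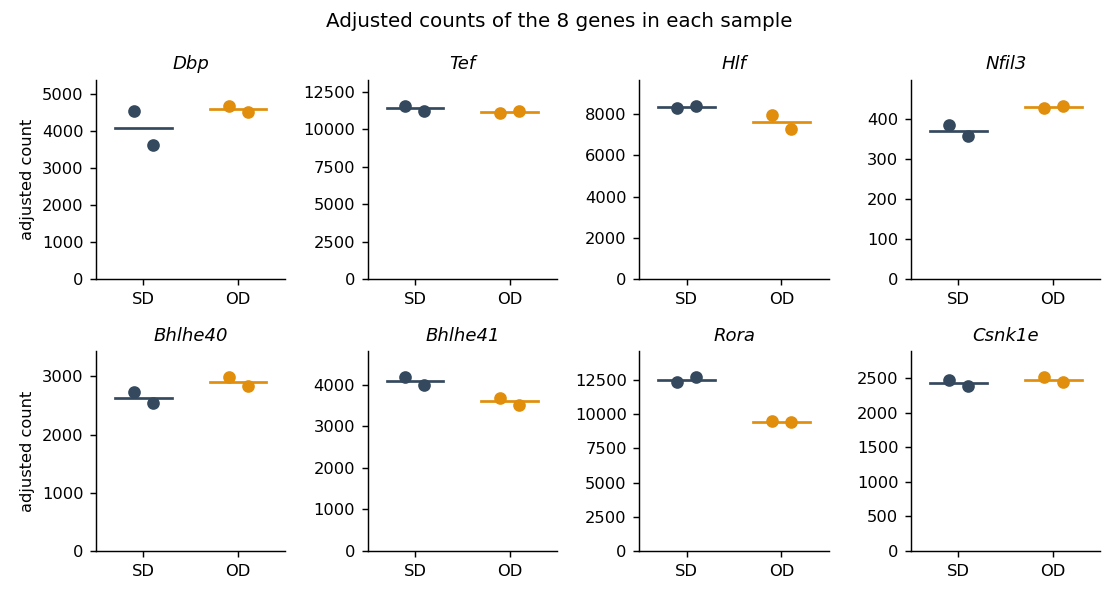
Adjusted counts (y axis, each panel from 0) of the 8 genes in subjective day (SD) and objective day (OD). Each point is 1 sample, the left point of a pair being replicate 1 and the right point replicate 2, and the line is the mean of the 2. Rora stands apart with 12376 and 12679 in subjective day against 9461 and 9416 in objective day, while the points of Dbp and Csnk1e overlap between the conditions.

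Rora encodes the retinoid-related orphan receptor alpha, an activator of Arntl (the gene of BMAL1) and other genes with ROR elements. The gene (ENSMUSG00000032238) spans bases 68653786 to 69388246 of chromosome 9 (GRCm38, plus strand), with a longest annotated transcript of 10878 bases. It read 12376 and 12679 in subjective day against 9461 and 9416 in objective day. Both objective day samples lay below both subjective day samples, and the lower of the subjective day samples was 30.8% above the higher of the objective day samples. Mean levels were 12528 ± 214 (SD, n = 2) under subjective day and 9438 ± 32.0 (SD, n = 2) under objective day. On the log2 scale the level fell by 0.41 (standard error 0.061, 95% confidence interval of the difference -0.55 to -0.27, limma adjusted p = 0.00974), and in percent it fell by 24.7%. Of all genes tested, 10.9% had a lower fold change than Rora. After removal of the GC trend Rora stood at a log2 fold change of -0.047 (95% confidence interval -0.20 to 0.10, limma adjusted p = 0.821). At nearly the same fold change the call was lost without objective day replicate 1 (-0.41, adjusted p = 0.0624), without objective day replicate 2 (-0.40, adjusted p = 0.0708) and when limma's variance prior did not follow the mean expression (-0.41, adjusted p = 0.13), where 0 genes in all were called and 3586 had an unadjusted p under 0.05.

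The 250 bases before the start site of Rora in RefSeq are shown because Rora was the called gene of the 8. They lie at chr9:68653536-68653785 of GRCm38.p6, plus strand, and are printed 5′ to 3′. Searched on both strands for the E-box CACGTG, the D-box (TTATGTAA or TTACGTAA), the cyclic AMP response element TGACGTCA and the ROR element, the window held none of the 4, so it has no capitals.
Rora: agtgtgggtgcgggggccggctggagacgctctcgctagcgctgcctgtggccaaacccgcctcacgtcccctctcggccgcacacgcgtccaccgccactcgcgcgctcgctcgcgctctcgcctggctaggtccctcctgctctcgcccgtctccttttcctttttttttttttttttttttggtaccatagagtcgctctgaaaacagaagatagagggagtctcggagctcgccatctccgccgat
Among 32841 windows of this length in the RefSeq table, 6.02% held the E-box, 0.932% the D-box, 1.55% the cyclic AMP response element and 0.332% the ROR element. Windows were given for 7 of the 8 genes, not for Bhlhe40. Of these 7, Tef, Hlf and Bhlhe41 had a match to 1 of the motifs, and Rora, Dbp, Nfil3 and Csnk1e had none. A match in such a window is a description of its letters, and the absence of one says nothing about the factor.

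Rorb and the REV-ERB receptors were read from the same fit. Rorb, the receptor that photoreceptor development depends on, was at 14526 and 16099 under subjective day and at 8187 and 9214 under objective day. Its 2 conditions were far apart, and its level fell by 0.82 on the log2 scale (standard error 0.085, limma adjusted p = 0.00558). In contrast to Rora, Rorb was still called with the GC trend removed (log2 fold change -0.50, limma adjusted p = 0.0332), although both longest transcripts have a similar GC content, 40.9% for Rora and 41.6% for Rorb. Of the REV-ERB receptors, Nr1d2 fell by 0.49 on the log2 scale (adjusted p = 0.00601) and Nr1d1 rose by 0.28 (adjusted p = 0.0462), both from limma's test. The call of Nr1d1 was lost without objective day replicate 1 (0.23, adjusted p = 0.366), objective day replicate 2 (0.33, adjusted p = 0.137) or subjective day replicate 2 (0.27, adjusted p = 0.0929) and without the filter (adjusted p = 0.053), while Nr1d2 was called in each of these settings. Of these 4 receptors, Rora included, 3 were thus called lower and 1 higher, beside 7.45% and 1.06% of all genes tested. With the GC trend removed 1 of the 4 was called lower and 0 higher, beside 0.633% and 0.570%, the median log2 fold change being -0.45 as deposited and -0.12 with the trend removed. Within each sample, the ratio of Rora and Rorb to Nr1d1 and Nr1d2, all per kilobase of longest transcript, was 0.502 and 0.538 under subjective day and 0.293 and 0.330 under objective day. The 2 conditions did not overlap in this ratio, for which the exact permutation test gave the smallest p it can give, 0.333. All 4 genes in the ratio had been called already, so it adds no separate support. Its denominator sums Nr1d1, which rose, and Nr1d2, which fell as Rora and Rorb did. The ratio is from the deposited values and was not computed with the GC trend removed, where the log2 fold changes were -0.047 for Rora, -0.50 for Rorb, 0.17 for Nr1d1 and -0.19 for Nr1d2.

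The PAR bZIP activators were all well expressed and none was called. Tef, first described in thyrotroph cells of the pituitary, had the most uniform values of the 3, with 11554 and 11211 under subjective day and 11100 and 11175 under objective day. The lower subjective day sample lay only 0.322% above the higher objective day sample. The log2 fold change of Tef was -0.031 (standard error 0.062, limma adjusted p = 0.793), with a 95% confidence interval of -0.18 to 0.11, or -11.5% to 8.18% in percent of the level. With the GC trend removed it was -0.11. The gene (ENSMUSG00000022389) spans bases 81802421 to 81826863 of chromosome 15 (GRCm38, plus strand). Rescaled to equal sums, the fold change of Tef turned to 0.0092, a size that the interval does not tell from 0.

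Tef has 2 start sites in the RefSeq table, and the window before each held an E-box, the element of CLOCK and BMAL1. It began at position -127 from the first start site and at position -138 from the second. The second window, at chr15:81811164-81811413 on the plus strand, is shown with the E-box in capitals.
Tef, second start: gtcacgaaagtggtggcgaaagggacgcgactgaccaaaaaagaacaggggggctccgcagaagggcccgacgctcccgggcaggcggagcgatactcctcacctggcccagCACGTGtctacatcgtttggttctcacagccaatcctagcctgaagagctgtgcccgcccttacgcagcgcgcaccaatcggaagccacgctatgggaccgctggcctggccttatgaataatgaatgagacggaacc

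Hlf, hepatic leukemia factor, read 8307 and 8410 in subjective day against 7943 and 7306 in objective day. Both objective day samples were lower, but they lay further from each other (0.12 on the log2 scale) than the subjective day samples did (0.018). The log2 fold change of Hlf was -0.13 (standard error 0.066, 95% confidence interval -0.29 to 0.021, limma adjusted p = 0.257) and -0.0067 with the GC trend removed. Hlf (ENSMUSG00000003949) spans bases 90336536 to 90390895 of chromosome 11 (GRCm38, minus strand), and overlaps no other annotated gene. The window before its start site, at chr11:90390918-90391167 on the minus strand, held the cyclic AMP response element from position -9. It is shown with that element, through which CREB acts, in capitals.
Hlf: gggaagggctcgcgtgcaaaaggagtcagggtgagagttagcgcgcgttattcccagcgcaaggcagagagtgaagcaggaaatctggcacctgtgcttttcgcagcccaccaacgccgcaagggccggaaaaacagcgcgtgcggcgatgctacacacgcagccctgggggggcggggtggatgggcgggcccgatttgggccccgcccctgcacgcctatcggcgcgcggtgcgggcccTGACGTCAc

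Dbp, the D-site albumin promoter binding protein and a standard reporter of clock phase in many tissues, differed more between the subjective day replicates than between conditions. It read 4563 and 3643 in subjective day against 4695 and 4520 in objective day. Subjective day replicate 2 was low and the other 3 samples lay together, so that the conditions overlapped. Mean Dbp was 4103 ± 651 (SD, n = 2) under subjective day and 4608 ± 123 (SD, n = 2) under objective day. It had a log2 fold change of 0.18 (standard error 0.10, 95% confidence interval -0.065 to 0.42, limma adjusted p = 0.331) and 0.034 with the GC trend removed. Without subjective day replicate 1 it was 0.34 and passed the threshold (limma adjusted p = 0.0139), and without subjective day replicate 2 it was 0.014 (adjusted p = 0.941). Dbp (ENSMUSG00000059824) spans bases 45705088 to 45710203 of chromosome 7 (GRCm38, plus strand) and shares 539 exonic bases with Sphk2 on the other strand. Strand use in the counting is not given in the sources used here, so reads of the 2 genes cannot be told apart there. The same holds for Tef, Bhlhe40, Rora and Csnk1e, which share 193, 118, 82 and 267 exonic bases with antisense genes, the highest value among which was 101 (Gm17597, the partner of Tef). Sphk2 was at 751 and 833 under subjective day and at 924 and 905 under objective day, below Dbp in each sample.

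Nfil3 represses through the D-box that the PAR bZIP factors activate. It was the least expressed of the 8 genes, at 384 and 358 (subjective day) and 426 and 433 (objective day). The 2 objective day samples were the higher ones, by at least 10.9%. It had a log2 fold change of 0.21 (standard error 0.093, 95% confidence interval -0.0073 to 0.43, limma adjusted p = 0.211), and 0.12 with the GC trend removed. Nfil3 (ENSMUSG00000056749) spans bases 52967209 to 52981073 of chromosome 13 (GRCm38, minus strand) without an overlapping gene. Per kilobase of longest transcript, the 3 activators together were 34.7 and 34.1 times the level of Nfil3 in subjective day and 30.8 and 29.4 times in objective day. The ratio was lower in both objective day samples, with an exact permutation p of 0.333. Of 6 genes described as PAR bZIP targets in liver, brain or kidney, 0 were called in either direction, beside 7.45% lower and 1.06% higher of all genes tested. The median of these 6 was 0.12 on the log2 scale, against 0.015 over all genes tested, and 0.032 with the GC trend removed, against 0.021. Among them, Por, the electron donor of cytochrome P450 enzymes, read 3531 and 3448 in subjective day against 3998 and 3804 in objective day (log2 fold change 0.16, limma adjusted p = 0.149). Nr1i3, the nuclear receptor CAR of the liver, stayed between 33.9 and 46.9 in the 4 samples, and its conditions overlapped.

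The Dec repressors lay on opposite sides. Bhlhe40 (DEC1), which also responds to light, activity and hypoxia, was at 2723 and 2542 under subjective day and at 2981 and 2830 under objective day. Bhlhe41 (DEC2) read 4180 and 3993 in subjective day against 3685 and 3524 in objective day. For neither gene did the conditions overlap, Bhlhe40 being higher and Bhlhe41 lower in both objective day samples. Log2 fold changes were 0.14 for Bhlhe40 (standard error 0.065, 95% confidence interval -0.011 to 0.30, adjusted p = 0.226) and -0.18 for Bhlhe41 (standard error 0.061, 95% confidence interval -0.32 to -0.038, adjusted p = 0.119), both from limma's test. Neither was called over all genes, although the interval of Bhlhe41, which takes no account of the number of genes tested, leaves out 0. Removing the GC trend gave log2 fold changes of 0.14 for Bhlhe40 and -0.13 for Bhlhe41. Within each sample the ratio of Bhlhe40 to Bhlhe41 per kilobase was 1.28 and 1.25 under subjective day and 1.59 and 1.58 under objective day. As the 2 genes lay without overlap on opposite sides, this ratio had to separate the conditions. Its exact permutation p of 0.333, the smallest possible, therefore adds nothing to the values of the 2 genes. The ratio is from the deposited values and was not computed with the GC trend removed.

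Both genes lie on chromosome 6 of GRCm38, Bhlhe40 (ENSMUSG00000030103) on the plus strand from 108660629 to 108666925 and Bhlhe41 (ENSMUSG00000030256) on the minus strand from 145858243 to 145865558. Bhlhe41 shares 1280 exonic bases with Gm43909, a predicted transcript of the other strand, the longest such overlap of the 8 genes. Reads of the pair cannot be told apart there either, and the level of Gm43909 was not analysed here. In the RefSeq window before the start site of Bhlhe41 an E-box, the element DEC proteins themselves bind, began at position -153.

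Csnk1e, whose product marks PER proteins for degradation, was, with Tef, the gene with the smallest difference between conditions. It read 2465 and 2391 in subjective day against 2509 and 2449 in objective day, so the conditions overlapped. It had a log2 fold change of 0.030 (standard error 0.059, limma adjusted p = 0.795), with a 95% confidence interval of -0.11 to 0.17, or -7.27% to 12.4% in percent of the level. Its direction turned to -0.076 with the GC trend removed. Csnk1e (ENSMUSG00000022433) spans bases 79417856 to 79455566 of chromosome 15 (GRCm38, minus strand). Its close paralog Csnk1d, which acts on the same substrates, was at 3854 and 3657 under subjective day and at 4079 and 4221 under objective day and was not called (log2 fold change 0.14, limma adjusted p = 0.192).

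**Figure D2:**
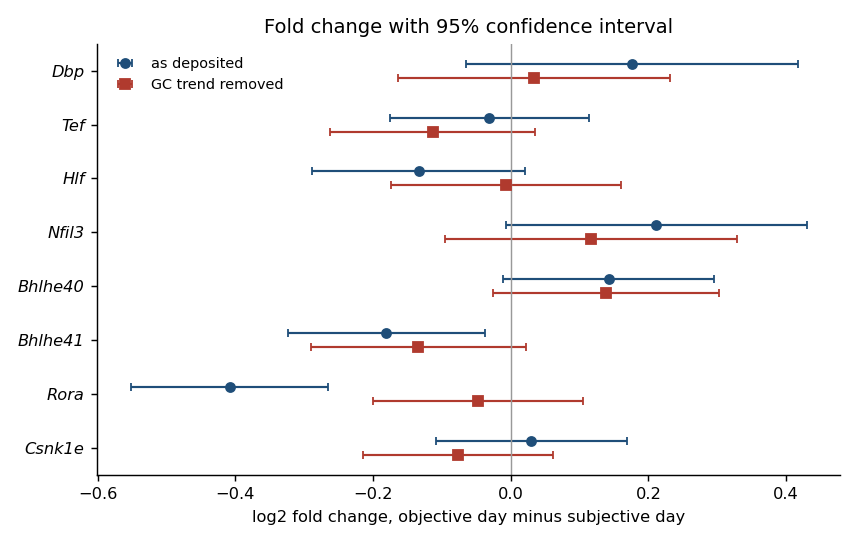
Log2 fold change of the 8 genes, objective day minus subjective day (x axis), with limma's 95% confidence intervals, from the deposited values (circles) and with each sample's GC trend removed (squares). Rora is at -0.41 in the first and at -0.047 in the second, and with the trend removed every interval spans 0.

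The kinases, phosphatases and ubiquitin ligases of the clock comprised 16 tested genes, Csnk1e included. In objective day 4 were called lower and 1 higher, beside 7.45% and 1.06% of all genes tested. Their median log2 fold change was -0.017. Csnk1a1, the casein kinase 1 alpha gene, fell by 0.29 on the log2 scale (adjusted p = 0.027), unlike Csnk1d and Csnk1e, which were not called. A test of the difference between these paralogs was not made. Csnk2a1, a catalytic subunit of casein kinase 2, also fell by 0.29 (adjusted p = 0.0271), and Prkaa1, a catalytic subunit of AMP kinase, fell by 0.33 (adjusted p = 0.024). Ppp1cb, a catalytic subunit of protein phosphatase 1, read 4408 and 4972 in subjective day against 2459 and 2331 in objective day, and fell by 0.97 (adjusted p = 0.00531). Usp2, a deubiquitinase with a rhythmic transcript in many tissues, rose by 0.27 (adjusted p = 0.0444). All of these adjusted p are from limma's test. Without objective day replicate 1 or 2, Csnk1a1 (adjusted p = 0.18 and 0.186), Csnk2a1 (0.156 and 0.191), Prkaa1 (0.157 and 0.14) and Usp2 (0.328 and 0.144) were no longer called, while Ppp1cb was. Without subjective day replicate 2 the calls of Csnk1a1 (0.0551) and Usp2 (0.1) were lost, and without the filter that of Usp2 (0.0514). Ppp1cb was still called after the GC trend was removed (log2 fold change -0.60, limma adjusted p = 0.0156), while Csnk1a1, Csnk2a1, Prkaa1 and Usp2 were not, and Prkaa1 turned to 0.087. Another gene of the list passed the threshold in that setting on the higher side, Btrc, which encodes the ubiquitin ligase subunit that recognises PER, with a log2 fold change of 0.47 against 0.082 as deposited. Of the genes not called, Prkaa2 had a log2 fold change of -0.24 and Gsk3a of 0.16. Both depended on the subjective day sample used. Without subjective day replicate 1 they were at -0.36 and 0.26, and without subjective day replicate 2 at -0.12 and 0.057.

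The core loop itself held 11 tested genes, of which Nr1d2 was called lower and Nr1d1 higher, with a median log2 fold change of -0.012. Of the 9 not called, Per2 (-0.16, adjusted p = 0.232) and Clock (-0.14, adjusted p = 0.21) had the largest fold changes, and Clock turned to 0.22 with the GC trend removed. Of 10 genes activated through E-boxes, 2 were called lower and 2 higher, beside 7.45% and 1.06% of all genes tested. Beside the REV-ERB genes these were Nampt, the NAD salvage enzyme, which fell by 0.39 on the log2 scale (adjusted p = 0.0223), and Usp2. None of these calls held with the GC trend removed (0 lower and 0 higher of the 10, likewise 0 of the 11 core loop genes). That setting called only 0.633% lower and 0.570% higher of all genes, so 0 calls in lists this short say little about them. In it Nampt turned to 0.012 (limma adjusted p = 0.963), Nr1d2 was at -0.19 and Nr1d1 at 0.17. From the deposited values without objective day replicate 2, Nampt was at -0.33. Wee1, a kinase of the cell cycle, was not called (-0.38, adjusted p = 0.0864). Of 5 tested genes with ROR elements, Nr1d1 was the only one called, and 0 were called with the GC trend removed. Arntl, the best known target of RORA, was at 2804 and 2627 under subjective day and at 2898 and 2820 under objective day and was not called (log2 fold change 0.075, 95% confidence interval -0.072 to 0.22, limma adjusted p = 0.503).

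Of 7 bZIP factors related to the C/EBP family, Cebpg fell by 0.49 on the log2 scale (limma adjusted p = 0.00813), and the others were not called. With the GC trend removed Cebpg was at -0.27 (limma adjusted p = 0.142), and 0 of the 7 were called. Cebpd read 155 and 155 in subjective day against 231 and 194 in objective day (log2 fold change 0.45, limma adjusted p = 0.0964), and Atf5 had a log2 fold change of 0.26 (limma adjusted p = 0.131). The fold change of Atf5 was 0.38 without subjective day replicate 1 and 0.13 without subjective day replicate 2. Of 8 genes of light entrainment, Creb1 was called lower and Fos and Egr1 higher. Egr1, an immediate early gene, rose from 375 and 512 in subjective day to 2163 and 2006 in objective day (log2 fold change 2.25, limma adjusted p = 0.00531), and Fos rose by 0.76. Per1, induced by light in the master clock of the brain, was not called (0.12, adjusted p = 0.266), nor was Crtc1, a CREB coactivator (0.17, adjusted p = 0.131). Creb1 had a log2 fold change of -0.45 as deposited and of 0.00088 with the GC trend removed, and lost its call without objective day replicate 2 (adjusted p = 0.0663), whereas Fos and Egr1 were called in both. Over the 52 distinct tested genes of the lists, which share members with each other, 10 were called lower and 4 higher (7.45% and 1.06% of all genes tested), with a median of 0.0015. After removal of the GC trend 2 were called lower and 3 higher, among the latter Btrc (0.633% and 0.570% of all genes).

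**Figure D3:**
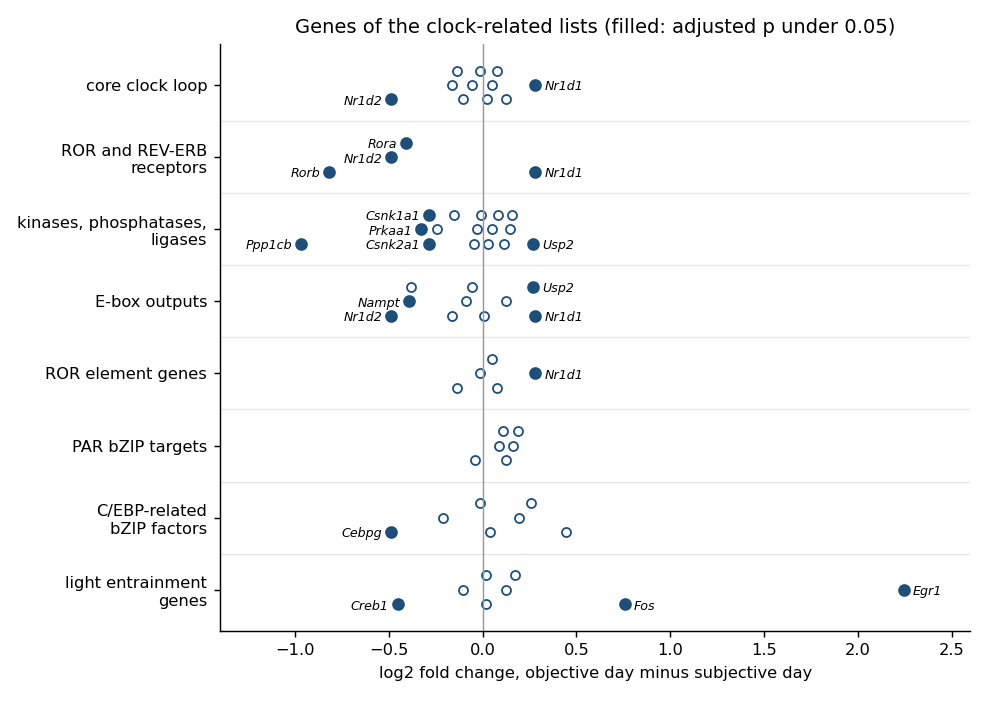
Log2 fold change, objective day minus subjective day (x axis), of every tested gene in 8 lists of clock-related genes (rows). Points are single genes, spread vertically to be visible, filled and named where limma's adjusted p was under 0.05, and genes held by several lists appear in each. The 4 ROR and REV-ERB receptors shown are filled, while none of the 6 PAR bZIP targets is.

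The GC content of the longest transcript, which the choice of the genes did not use, ran from 40.9% for Rora to 61.6% for Dbp, where the median of all tested genes was 49.8%. The 3 genes with the lowest GC content, Rora, Hlf (45.1%) and Bhlhe41 (47.5%), all had log2 fold changes below 0. Of the other 5, Bhlhe40 (49.4%), Nfil3 (54.5%), Csnk1e (56.4%) and Dbp had fold changes above 0, and Tef (53.1%) lay just below it. When all genes were divided by GC content into 10 bins of nearly equal size, the median log2 fold change was -0.42 for the lowest bin, which includes Rora, and 0.14 for the highest, which includes Dbp. The fold change of Rora, -0.41, was thus near the median of genes of its own GC content. Rorb fell further than the median of its bin, the next one (-0.21), and Ppp1cb further than that of the lowest bin. A difference in GC response between libraries and a difference caused by the condition cannot be told apart with these 4 samples.

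**Figure D4:**
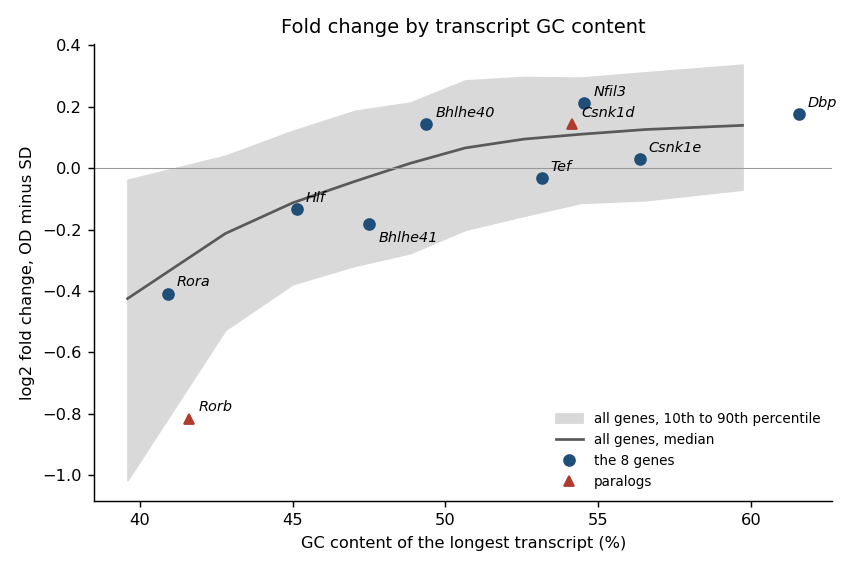
Log2 fold change, objective day minus subjective day (y axis), against the GC content of the longest transcript in percent (x axis). The line and the band are the median and the 10th to 90th percentile over all genes in 10 bins by GC content, circles are the 8 genes and triangles the paralogs Rorb and Csnk1d. Rora at 40.9% lies close to the line and Rorb at 41.6% lies below it.

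Levels of the genes were compared with each other per kilobase of longest transcript. The mean adjusted count per kilobase over the 4 samples was 2557 for Tef, 2371 for Dbp, 1416 for Hlf, 1010 for Rora, 889 for Bhlhe40, 773 for Csnk1e, 627 for Bhlhe41 and 198 for Nfil3. Tef stood above 96.9% of all genes tested on this scale and Nfil3 above 52.1%. The ranges of Tef (2521 to 2624) and Dbp (1983 to 2556) overlapped, so these neighbours did not differ beyond their spread. Over all 4 samples the ranges of Rora (866 to 1166) and Bhlhe40 (817 to 958) also overlapped. Within each condition they did not, and on this scale their order differed by condition. Rora per kilobase was above Bhlhe40 in both subjective day samples (1138 and 1166 against 875 and 817) and below it in both objective day samples (870 and 866 against 958 and 909). This change of order depends on the transcript length and on the deposited values. Per kilobase of longest coding sequence, the means over the 4 samples were 7000 for Rora and 2246 for Bhlhe40. Correction for GC content moved Rora from -0.41 to -0.047 on the log2 scale and left Bhlhe40 at 0.14. Whether the order changes with condition after that correction was not tested. The other neighbours in the order did not overlap. With the longest coding sequence in place of the transcript, the order became Tef, Hlf, Rora, Dbp, Bhlhe41, Bhlhe40, Csnk1e and Nfil3, so that only the first and the last place did not depend on the length used.

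The genes with a pattern most like that of Rora over the 4 samples were Jak2, Arap2, Mtdh and Rpa3. The measure was the root mean square difference in log2(value + 1) centred on each gene's mean, which ran from 0.0054 for Jak2 to 0.0087 for Rpa3. With 4 samples such closeness was common, and 298 genes lay within 0.05 of Rora. Jak2, a cytokine receptor kinase, was at 1635 and 1682 under subjective day and at 1246 and 1236 under objective day. The GC content of these 4 genes' longest transcripts ran from 34.2% for Rpa3 to 44.3% for Jak2, below the median of all genes tested in each.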

How the data were processed

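RNA-seq had been performed on 4 pooled eye samples. Per the labels and the methods, the authors demultiplexed the reads (CASAVA 1.8), aligned them to mouse Ensembl release 72 with TopHat2 2.0.9 and Bowtie2 2.1.0, counted genes with HTSeq and used edgeR. The deposited values are a signal, namely gene counts adjusted by the authors to a common library size, with decimals. The deposited fold changes, mean log2 CPM, p-values and adjusted p-values of the authors' own comparison were not used. The filter, normalization and strand setting are not given in the sources used here.

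The test took genes reaching 10 in 2 or more samples and used limma 3.58.1 (R 4.3.3) on log2(value + 1), with a variance prior following mean expression and Benjamini-Hochberg adjustment at 0.05. Objective and subjective day samples were grouped by title. The procedure was run on simulated counts with the same dispersion for all genes and without a GC trend. That run therefore does not show how the calls behave under the GC trend of these data. Replicates correlated at 0.991 and 0.993 (Pearson, log2 values across genes). Read as counts, the adjusted values of a pair had a median chi-square per gene of 1.85 (subjective day) and 1.16 (objective day), against 0.455 for sampling noise alone. The values are not raw counts, so this is approximate. Each sample was counted as 1 replicate. All libraries were sequenced on a single lane. Whether same-numbered samples share a batch or animals is not given in the sources used here, and p-values measure the spread between these pooled samples. Depth is unknown and the number of samples limits precision.

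Positions, lengths and GC content were from GENCODE M21 (GRCm38), promoters from RefSeq (GRCm38.p6). GC trends were removed per sample by local regression (span 0.3), which also removes biology that follows GC content. The members and lists were chosen with earlier results of these data known. Named were the 8 genes, paralogs of members, called genes and the 2 largest others of each list, and the 5 genes most like the member with the smallest adjusted p. A paralog and 1 of these 5 are not reported here. Btrc and Sphk2 were named after their values were seen. Figures were drawn with matplotlib 3.10.9.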

Additional observations from a re-analysis of the deposited data

How the results depend on the processing

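Alternatives covered the filter, pseudocount, scaling, variance prior, GC content, replicate number and each sample left out. The labels give samples of both conditions the same numbers without saying that these pair them, and same-numbered samples' deviations from the group means correlated at 0.319 across genes. With the replicate block, 2331 genes were called lower and 1282 higher, 2 of the 8 genes lower (Rora and Bhlhe41, log2 fold change -0.18, limma adjusted p = 0.0282) and 9 list genes higher. With the GC trend removed, 111 genes were called lower and 100 higher, none (0) of the 8, and 2 list genes lower. With the GC trend removed and the replicate block together, the counts were 712 and 914 over all genes, 0 of the 8 (Bhlhe41 limma adjusted p = 0.0917), and 6 lower and 7 higher in the lists. Among these list genes were Nr1d2, Per2 and Wee1 on the lower side and Nr1d1, Usp2 and Clock on the higher side. In both of these settings Rora was at -0.047 and the direction turned for Csnk1e (-0.076), Clock (0.22), Creb1 (0.00088), Nampt (0.012), Per1 (-0.00055), Prkaa1 (0.087) and Prkaa2 (0.14). Without the variance trend 0 genes were called in any group, Rora remaining at -0.41 with adjusted p = 0.13. Equal sums gave 617 genes called higher and turned Tef to 0.0092. Without a filter 2 list genes were called higher. With each sample left out in turn, where the lone sample is assumed to vary like the other group, calls ran from 604 to 1691 lower and from 36 to 866 higher over all genes, from 0 to 1 lower and from 0 to 1 higher among the 8, and from 4 to 11 lower and from 2 to 7 higher in the lists. The log2 fold changes ran from -0.43 to -0.39 for Rora and from 0.014 to 0.34 for Dbp. Other pseudocounts, the stricter filter and median ratio scaling changed no call among the 8. Samples numbering 2 per condition and unknown depth limit what these data can show, and the cause of the changes between settings was not tested.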
